A study of Mus musculus with 16 samples.

Results

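Complement components outside C1q are the proteases, thioester proteins, pore subunits and regulators that act around and after the C1q recognition molecule. The 8 genes C1ra, C4b, C3, Cfb, Cfp, C6, C7 and Serping1 were taken by symbol from the 35415 genes measured in mouse gastrocnemius, the large calf muscle. They were chosen from results of these same data, and which of the comparisons below drew attention to each gene was not recorded. Every contrast is therefore treated as used in the choice: the values and adjusted p-values of the 8 genes describe these mice and support no claim of their own.

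Wild-type male BALB/c mice, bought at 8 weeks of age, formed 4 groups of 4. The C group received saline and no training, and was placed on a treadmill that did not move. The E group received saline and was trained on a motorized treadmill for 4 weeks, at 14 m/min for 60 min on 6 days a week. The T group was injected under the skin of the left hind limb region with CT26 cells, a BALB/c colon carcinoma line used as a cachexia model, and was not trained. Like the C group, it was placed on a treadmill that did not move. The TE group received both the CT26 cells and the training. The side from which the gastrocnemius came is not stated, and each library is 1 mouse.

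Complement is a set of plasma and tissue proteins that mark cells and debris for removal. In the classical pathway C1q carries the proteases C1r and C1s, which cut C4 and C2 to build an enzyme that cleaves C3. In the alternative pathway deposited C3b binds factor B, which factor D activates and properdin stabilizes. Both routes can lead to cleavage of C5, after which C6, C7, C8 and C9 assemble into the membrane attack complex. Most circulating complement is made by the liver, and fibroblasts, macrophages and fat cells are further sources.

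The 16 libraries held between 35628211 and 37635741 counts assigned to genes. A count of 3, taken as the floor of detection, was worth 0.0797 to 0.0842 CPM, the counts scaled to a common library size, a limit that covers counting error only. Levels of one gene between mice are given as CPM with TMM library factors, and levels between genes as the deposited FPKM, which is also divided by transcript length. The summed FPKM of 10 muscle fiber genes was 67283 to 77460 over the mice, and the summed FPKM of 9 hepatocyte genes was 0.112 to 0.969. Albumin (Alb) averaged 0.185 FPKM. Of the 8 complement genes 7 passed the filter on low counts, and 14749 genes were tested in all. C6 did not pass.

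The transcripts lay far apart in level. Serping1, which encodes the C1 inhibitor that removes C1r and C1s from the C1 complex, was the most abundant with a mean of 58.0 FPKM over 16 mice. C3, the protein on which all pathways converge, averaged 16.3 FPKM. The classical protease C1ra averaged 6.83 FPKM and its substrate C4b 3.09 FPKM. Factor B (Cfb) averaged 2.79 FPKM, properdin (Cfp) 2.39 FPKM and the pore subunit C7 2.23 FPKM. C6, the pore subunit that binds immediately before C7, averaged 0.0121 FPKM.

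For the pore subunits the tables thus held C7 with almost nothing of its partners. C6 had 25 counts over all 16 libraries. Its counts were 1, 1, 0 and 1 in the C mice, 1, 7, 4 and 0 in the E mice, 2, 1, 0 and 5 in the T mice and 0, 1, 1 and 0 in the TE mice, so that 3 libraries exceeded the floor of 3 counts. The following subunits were looked up after these values were seen. Hc, which encodes C5, had 1 count in all, C9 had 18, and C8a and C8b had 0 counts of 587411943, which allows up to 0.00511 CPM over all libraries. C8g, the lipocalin-like chain of C8, averaged 1.13 FPKM. C7 itself was counted 130 to 716 times in each library.

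**Figure D1:**
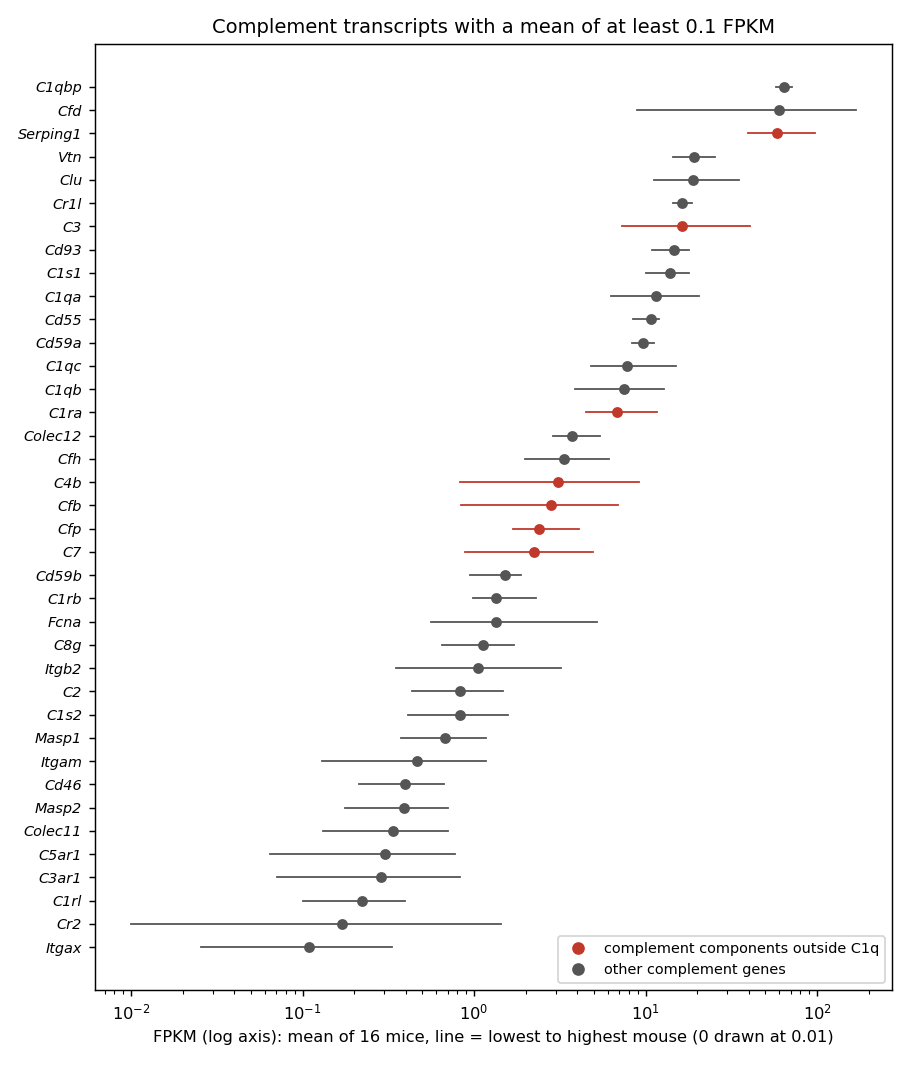
Mean FPKM on a log axis for the 38 complement genes with a mean of at least 0.1 FPKM, of which 7 are the genes described here (red) and 31 are other complement genes (grey); lines run from the lowest to the highest of 16 mice. Serping1 and C3 stand at the upper end, C7 at 2.23 FPKM, and C6, C9 and Hc fall below the range drawn.

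A list of 48 other complement genes gave the setting for these levels. Of these, 47 were in the tables, 32 passed the filter, 19 averaged at least 1 FPKM, 16 averaged under 0.1 FPKM, and 4 (C8a, C8b, Mbl1 and Mbl2, the last pair being the mannose-binding lectins) had no count in any library. The 5 highest were C1qbp, a mitochondrial protein named for C1q binding, Cfd, the factor D of fat cells, the inhibitors Vtn and Clu, and the membrane regulator Cr1l.

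The E and C groups differed most in C7. The C mice had 5.04, 5.62, 3.51 and 5.82 CPM, and the E mice 12.6, 19.5, 12.2 and 15.4 CPM. Every E mouse lay above every C mouse, and the lowest E mouse was above the highest of the 8 C and T mice. The means were 5.0 ± 1.05 and 14.9 ± 3.38 CPM (SD, n = 4), a log2 fold change of 1.58 (SE 0.209), or 2.99-fold (edgeR quasi-likelihood test, adjusted p = 0.0107). It was first of all 14749 genes by p in this comparison, in which 0.0881% of genes were called. The adjusted p was 0.0746 without the first C mouse, 0.0646 without the third C mouse and 0.0529 without the fourth E mouse, with log2 fold changes of 1.58, 1.44 and 1.56. C7 lies on chromosome 15 of GRCm39, 5017233 to 5093252 on the minus strand, and C6 lies on the same chromosome at 4756525 to 4844580 on the plus strand.

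In the tumor-bearing mice C7 was again higher with training, by less. The T mice had 4.01, 7.63, 7.58 and 5.0 CPM and the TE mice 8.93, 8.86, 11.1 and 10.03 CPM. Every TE mouse lay above every T mouse, which held for 1.24% of all genes. Means were 6.05 ± 1.83 and 9.74 ± 1.08 CPM (SD, n = 4). The log2 fold change was 0.68 (SE 0.206), with an adjusted p of 0.693 and an unadjusted p of 0.004 in edgeR, and 0% of genes were called in this comparison (edgeR, 867 genes at an unadjusted p under 0.05; DESeq2, 5 genes higher and 2 lower, none of them one of the 7).

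Between the trained groups C7 was lower with the tumor. Every TE mouse lay below every E mouse, which held for 3.95% of all genes, with a log2 fold change of -0.62 (SE 0.201, edgeR adjusted p = 0.304). Between the untrained groups the T and C mice overlapped, and the log2 fold change was 0.28 (SE 0.211, edgeR adjusted p = 0.586). The difference between both training effects was -0.89 on the log2 scale (SE 0.291, edgeR adjusted p = 0.438 for the interaction). Averaged over tumor states, the training effect on C7 was 1.13 (SE 0.146), or 2.19-fold (edgeR adjusted p = 0.00806). It was the 1 gene called of all tested in this edgeR fit, which is 0.00678% of them. With no filter on low counts edgeR called 14 genes higher and 3 lower for the training effect, and DESeq2 called 57 and 32.

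Markers of connective tissue differed alongside C7 in E compared with C mice and in TE compared with E mice. The summed FPKM of 7 tendon genes was 25.9 to 30.7 in the C mice, 52.6 to 84.4 in the E mice, 23.3 to 41.7 in the T mice and 25.6 to 37.4 in the TE mice. All 7 tendon genes had a count in every library. In the E group compared with the C group 6 of the 7 were higher, with a median log2 fold change of 1.56, and 3 were called: the cartilage and tendon matrix protein Chad at 3.26, fibromodulin (Fmod) at 1.99 and tenomodulin (Tnmd) at 1.56. Between TE and T mice the median log2 fold change of these genes was -0.15 and 0 were called (edgeR, 0 at an unadjusted p under 0.05, and 0 by DESeq2), and the C7 difference stood at 0.68 there. Fmod and Tnmd were lower in TE than in E mice, at -1.62 and -1.57 on the log2 scale, as C7 was at -0.62.

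The summed FPKM of 12 fibroblast genes was 658 to 940 in the C mice, 995 to 1251 in the E mice, 558 to 908 in the T mice and 747 to 788 in the TE mice. Gsn and Dcn, averaging 301 and 265 FPKM over 16 mice, made up most of this sum. All 12 fibroblast genes were higher in E than in C mice, with a median log2 fold change of 0.53 and 0 called (edgeR, 10 at an unadjusted p under 0.05, and 3 called by DESeq2). Between TE and T mice 5 stood higher and 7 lower, and the median was -0.08, with 0 called (edgeR, 1 at an unadjusted p under 0.05, and 0 by DESeq2). All 12 were lower in TE than in E mice, with a median of -0.53 and 0 called (edgeR, 9 at an unadjusted p under 0.05, and 3 called by DESeq2). The share of these cells in the C7 differences was not tested. In bulk RNA, more cells of a type and more RNA per cell cannot be told apart, here or in any result below.

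**Figure D2:**
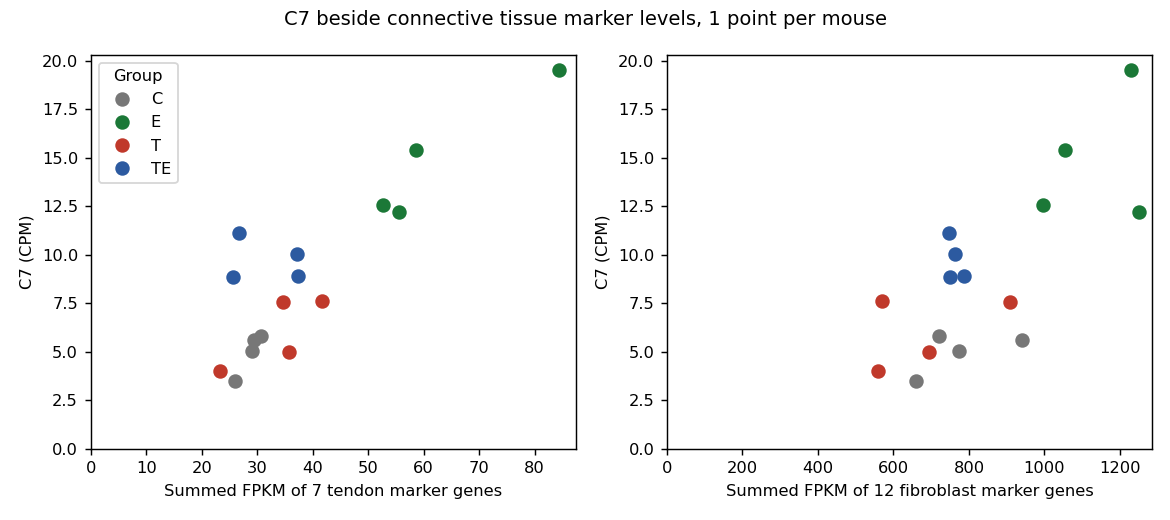
C7 in CPM for each of 16 mice against the summed FPKM of 7 tendon genes (left) and of 12 fibroblast genes (right), 1 point per mouse, coloured by group. The E mice stand apart on both axes in both panels, and the TE mice, at 8.86 to 11.1 CPM, lie above the T mice at tendon and fibroblast sums within those of the C and T mice.

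The sequences before the start sites of C7, C3 and C1ra are shown because C3 and C1ra had the highest correlation of any pair across mice and C7 had the training difference. Each holds 250 bases before and 50 bases after the annotated start in RefSeq, GRCm38.p6, read 5′ to 3′ on the gene's strand. RefSeq promoters were found for 5 of the 8 genes, and C4b, Cfb and Serping1 had no entry. The motifs searched, on both strands, were TTCNNNGAA, the letters bound by STAT factors, TTGCNNAA, those of C/EBP factors, the ISRE core of interferon response elements and the NF-kappa B motif. Capitals mark the matches.
C7, chr15:5063724-5064023, minus strand: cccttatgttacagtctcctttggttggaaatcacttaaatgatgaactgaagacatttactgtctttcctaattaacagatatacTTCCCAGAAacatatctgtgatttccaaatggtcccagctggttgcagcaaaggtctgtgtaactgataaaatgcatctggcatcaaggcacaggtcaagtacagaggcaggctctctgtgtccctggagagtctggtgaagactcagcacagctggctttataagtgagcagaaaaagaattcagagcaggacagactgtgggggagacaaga
C3, chr17:57228087-57228386, minus strand: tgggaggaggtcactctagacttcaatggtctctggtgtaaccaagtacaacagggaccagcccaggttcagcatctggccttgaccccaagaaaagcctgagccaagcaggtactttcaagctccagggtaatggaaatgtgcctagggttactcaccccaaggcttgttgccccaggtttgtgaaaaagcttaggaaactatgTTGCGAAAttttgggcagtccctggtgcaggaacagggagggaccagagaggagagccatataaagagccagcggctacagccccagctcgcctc
C1ra, chr6:124512371-124512670, plus strand: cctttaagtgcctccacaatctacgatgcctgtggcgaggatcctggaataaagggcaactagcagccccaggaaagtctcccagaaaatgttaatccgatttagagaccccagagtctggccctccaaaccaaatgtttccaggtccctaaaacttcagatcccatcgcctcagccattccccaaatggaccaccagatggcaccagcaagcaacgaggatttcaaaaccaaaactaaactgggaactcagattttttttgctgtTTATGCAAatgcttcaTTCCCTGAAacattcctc

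In C7 the STAT letters TTCCCAGAA began at position -164 from the start, and in C1ra TTCCCTGAA began at position 32 after it. That motif stood in 8.3% of 32851 mouse promoters of this length. The C/EBP letters stood in 10.8% of promoters, and were found in C3 as TTGCGAAA at position -45 and in C1ra, on the other strand, as TTATGCAA at position 16. The interferon letters (3.44% of promoters) and the NF-kappa B letters (1.63%) were in 0 of the 5 windows, and C6 and Cfp held none of the 4 motifs. The matches do not overlap one another, and a match describes letters, not binding.

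Among the 7 genes tested the T and C groups differed most in C4b. C4b encodes C4, the thioester protein that the classical and lectin proteases cleave. It had 4.69, 9.83, 10.5 and 4.92 CPM in the C mice and 17.4, 15.4, 49.8 and 32.5 CPM in the T mice. The groups did not overlap, and the third T mouse was the highest. Means were 7.48 ± 3.11 and 28.8 ± 15.97 CPM (SD, n = 4), with a log2 fold change of 1.94 (SE 0.386), or 3.84-fold (edgeR adjusted p = 0.0314).

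Serping1 was also past the threshold. The C mice had 76.2, 86.9, 70.9 and 73.9 CPM and the T mice 109.3, 95.1, 175.7 and 108.1 CPM. Every T mouse was above every C mouse, and the log2 fold change was 0.67 (SE 0.147), or 1.59-fold (edgeR adjusted p = 0.0467). In this comparison 2 of the 7 complement genes were called, against 0.678% of all genes.

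Factor B, the catalytic subunit of the alternative pathway C3 convertase, was separate between the groups without passing the threshold. Cfb had 2.42, 4.31, 4.96 and 4.64 CPM in the C mice and 8.02, 6.85, 13.5 and 11.7 CPM in the T mice. Its log2 fold change was 1.29 (SE 0.340, edgeR adjusted p = 0.0888). C4b, Cfb and Serping1 were thus the 3 genes with every T mouse above every C mouse, a separation seen in 4.03% of all genes.

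C3, C1ra and Cfp overlapped between C and T mice. C3 was 39.2, 83.6, 47.5 and 40.4 CPM in the C mice and 73.2, 54.9, 209.5 and 102.7 CPM in the T mice, where the second C mouse stood above 2 of the T mice. Its log2 fold change was 1.06 (SE 0.338, edgeR adjusted p = 0.160). C1ra averaged 14.3 ± 1.89 CPM in C and 20.1 ± 8.08 CPM in T mice (SD, n = 4), with a log2 fold change of 0.50 (SE 0.187, edgeR adjusted p = 0.229). Cfp, which stabilizes the alternative convertase and is made by myeloid cells, averaged 3.46 ± 0.717 and 4.59 ± 1.46 CPM, with a log2 fold change of 0.41 (SE 0.255, edgeR adjusted p = 0.505).

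The 7 genes were all higher in T than in C mice, with a median log2 fold change of 0.67 against -0.0012 over all genes. The third T mouse was the highest of the 16 for 5 of the 7: C1ra at 31.9 CPM, C4b, C3, Cfp at 6.63 CPM and Serping1. Without this mouse the log2 fold changes were 1.53 for C4b (edgeR adjusted p = 0.109), 0.43 for Serping1 (edgeR adjusted p = 0.0967), 1.11 for Cfb, 0.54 for C3, 0.18 for C1ra, 0.17 for Cfp and 0.15 for C7. Their median was then 0.43, and 0 of the 7 were called (edgeR, 3 at an unadjusted p under 0.05). Leaving out any 1 of the C mice also ended the call for both C4b and Serping1, at adjusted p between 0.0518 and 0.145. The Serping1 call was the least stable and held in 3 of 16 fits that each left out 1 mouse: it was also lost without T mouse 1, any E mouse or TE mouse 1, 2 or 3, at adjusted p between 0.0503 and 0.0647. The C4b call held in 11 of 16. Cfb passed without T mouse 2 (0.0471), without TE mouse 4 (0.0434), by DESeq2 (0.0327) and with no filter on low counts (0.0375). With a robust fit, limma on log2(FPKM + 1) or log2(FPKM + 0.1), or these 2 groups fitted alone, the adjusted p ranged from 0.0687 to 0.0896 for C4b and from 0.0646 to 0.147 for Serping1.

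**Figure D3:**
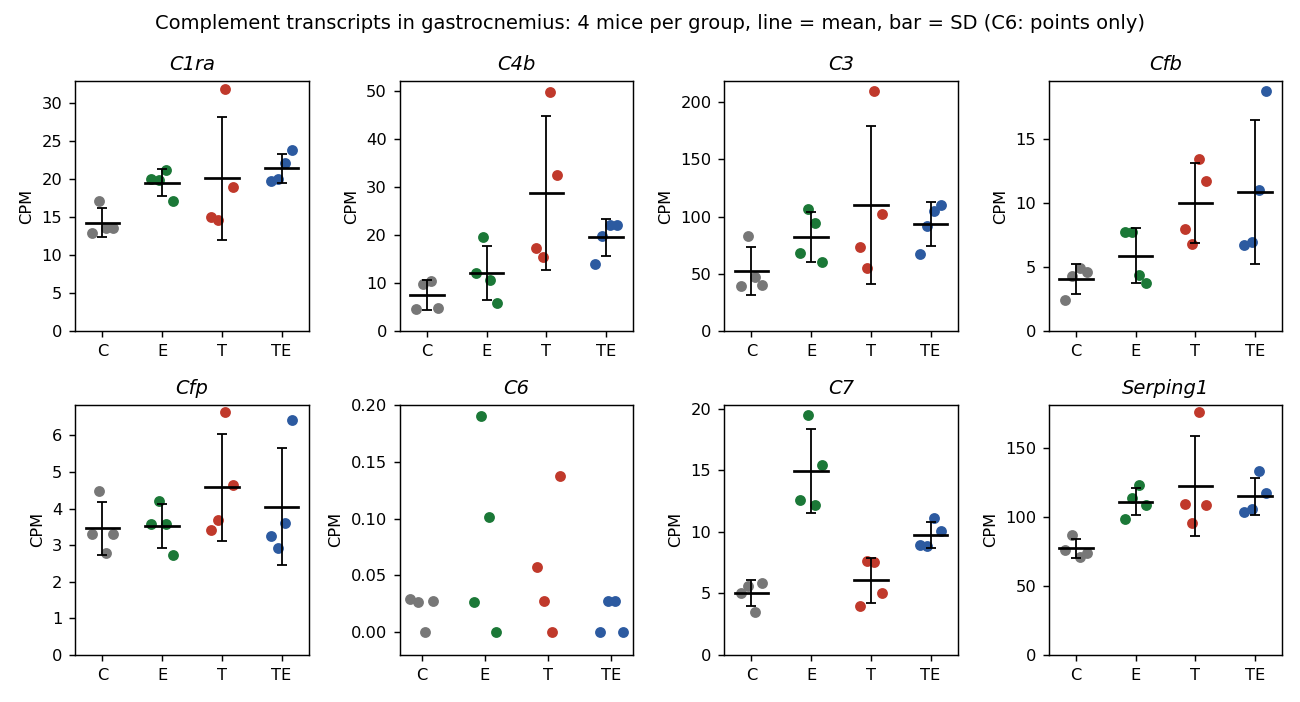
CPM of the 8 complement genes in each mouse, 4 per group, with the group mean (line) and SD (bar), except C6, which is shown as points only because its counts were 0 to 7. C7 is high in the E mice at 12.2 to 19.5 CPM, and the third T mouse stands above the other T mice for C4b, C3, C1ra, Cfp and Serping1.

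Markers of myeloid cells were measured in the same comparison. The 12 macrophage genes were all higher in T than in C mice, with a median log2 fold change of 0.69 and 0 called (edgeR, 4 at an unadjusted p under 0.05, and 0 by DESeq2), and their summed FPKM was 45.7 to 88.6 in the C mice, 60.8 to 101.5 in the E mice, 59.1 to 137.4 in the T mice and 66.6 to 131.5 in the TE mice. All 12 had a count in every library, and Lyz2, at 61.2 FPKM on average, made up most of the sum. The third T mouse had a macrophage sum of 125.8 and the fourth, the highest, of 137.4. Of 12 neutrophil genes 8 were tested, of which 7 were higher in T than in C mice and 1, Lcn2, was lower at -0.39 on the log2 scale. Lcn2 had 4.37 ± 7.65 FPKM in the C mice (SD, n = 4), with 15.8 FPKM in 1 of them. The calprotectin genes S100a8 and S100a9, counted in every library, were called at log2 fold changes of 3.70 and 3.38. Ltf, Ngp and Retnlg were also called, but they averaged 0.014, 0.013 and 0 CPM in C mice and entered the test only through the tumor groups, so that their calls are no support. The neutrophil sum was 1.84 to 18.2 FPKM in the C mice, 1.94 to 9.38 in the E mice, 15.997 to 89.2 in the T mice and 21.1 to 40.6 in the TE mice, and the neutrophil gene Elane was at 0 in all libraries. Their part in the complement differences was not tested.

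Fat cell genes, a list that includes the factor D gene Cfd, had no call in edgeR between groups. Of 10 adipocyte genes 9 were higher in T mice, with a median log2 fold change of 0.83 and 0 called (edgeR, 2 at an unadjusted p under 0.05, and 0 by DESeq2). All 10 were higher in E mice, with a median of 0.99 and 0 called (edgeR, 4 at an unadjusted p under 0.05, and 0 by DESeq2). Between TE and E mice 8 were lower, with a median of -0.51 and 0 called (edgeR, 0 at an unadjusted p under 0.05, and 0 by DESeq2). Their summed FPKM was 495 to 681 in the C mice, 560 to 895 in the E mice, 529 to 847 in the T mice and 540 to 666 in the TE mice, and their part in the complement differences was not tested either. Fabp4 made up most of this sum, with means of 488, 517, 483 and 475 FPKM in the C, E, T and TE mice.

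Among trained mice the tumor comparison gave smaller log2 fold changes than among untrained mice for the 6 genes other than C7, a difference that was called for 0 of them as an interaction (edgeR, 2 of the 6 at an unadjusted p under 0.05, and 0 by DESeq2). Without the third T mouse this no longer held for Cfp, at 0.17 in T compared with C and 0.21 in TE compared with E mice, and C1ra stood at 0.18 and 0.14. Cfb was 7.77, 7.75, 4.40 and 3.75 CPM in the E mice and 6.73, 6.96, 11.0 and 18.8 CPM in the TE mice, so that the groups overlapped and the fourth TE mouse was the highest of all 16. Its log2 fold change was 0.88 (SE 0.332, edgeR adjusted p = 0.405), and 0.49 without that mouse. C4b was 12.1, 19.5, 10.7 and 5.96 CPM in the E mice and 14.1, 19.9, 22.1 and 22.1 CPM in the TE mice, with a log2 fold change of 0.69 (SE 0.374, edgeR adjusted p = 0.607). C3, C1ra, Cfp and Serping1 lay between 0.05 and 0.20 on the log2 scale. No complement gene had every TE mouse above every E mouse, against 2.68% of all genes, and 0 of the 7 were called (edgeR, 2 at an unadjusted p under 0.05, and 0 by DESeq2), against 0.231% of all genes.

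Averaged over both training states, the tumor effect was past the threshold for C4b at 1.32 (SE 0.268, edgeR adjusted p = 0.0179) and Cfb at 1.09 (SE 0.238, edgeR adjusted p = 0.0277), against 1.36% of all genes. C3 stood at 0.62, Serping1 at 0.36 (edgeR adjusted p = 0.107), C1ra and Cfp at 0.31 each and C7 at -0.17. Without the third T mouse C4b and Cfb were 1.12 and 1.00, with edgeR adjusted p of 0.0259 and 0.0465, and C3 was 0.36, Serping1 0.24, Cfp 0.19 and C1ra 0.16. The Cfb call was lost in 5 of 16 fits that each left out 1 mouse (C mouse 2, C mouse 4, E mouse 3, E mouse 4 or TE mouse 3), with an adjusted p of up to 0.0709, and the C4b call in 0 of 16. Serping1 passed without T mouse 2, at 0.0428, and by DESeq2, at 0.0245. With a robust fit the adjusted p was 0.0632 for C4b and 0.0613 for Cfb, with limma on log2(FPKM + 1) it was 0.0523 and 0.0811, and for Cfb with a replicate block it was 0.0609.

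**Figure D4:**
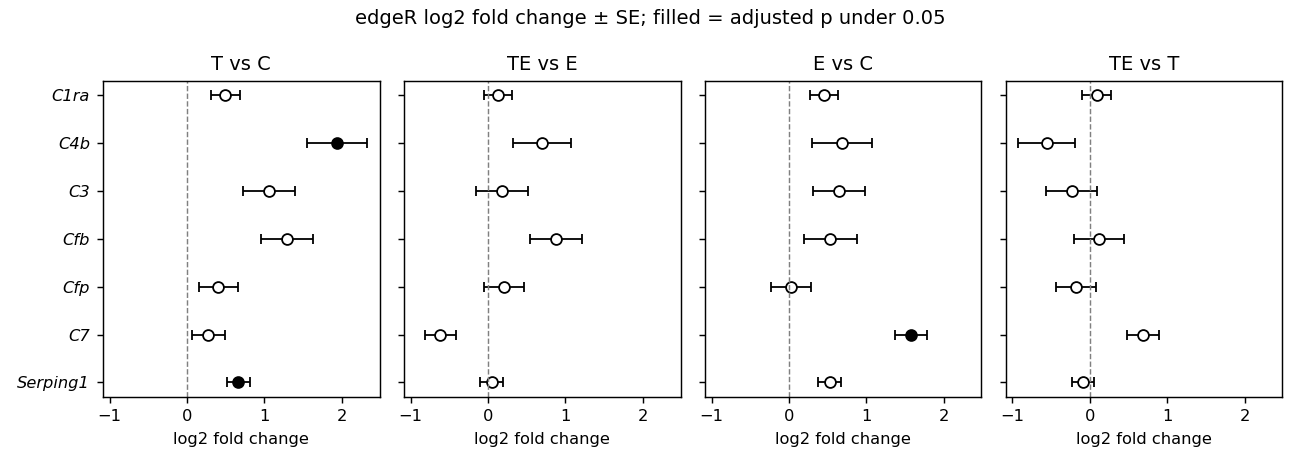
Fitted log2 fold change with its SE for 7 complement genes in 4 comparisons between groups; filled points have an edgeR adjusted p under 0.05. C4b and Serping1 are filled in T against C, C7 in E against C, and in TE against T the 7 values run from -0.56 to 0.68 with C7 alone above 0.12.

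Of the genes other than C7, Serping1 came nearest to the threshold in E compared with C mice. It was 98.6, 113.5, 122.7 and 108.7 CPM in the E mice, each above all the C mice, and the log2 fold change was 0.53 (SE 0.147, edgeR adjusted p = 0.148). C7 and Serping1 were the 2 genes with no overlap between E and C mice in CPM, a separation in the higher direction seen in 5.06% of all genes. C1ra was 19.96, 19.9, 21.2 and 17.1 CPM in the E mice and 12.9, 17.1, 13.5 and 13.5 CPM in the C mice, with 1 C mouse level with the lowest E mouse, and a log2 fold change of 0.45 (SE 0.187, edgeR adjusted p = 0.293). C3, C4b and Cfb stood at 0.65, 0.69 and 0.53, and Cfp at 0.02. With 1 mouse left out at a time C4b ranged from 0.36 (without E mouse 2) to 0.91, Cfb from 0.35 (without C mouse 1) to 0.69 and C3 from 0.50 to 0.96. Without the third T mouse, which is in neither group and enters this comparison only through the joint fit of all libraries, Serping1 passed with an edgeR adjusted p of 0.0149, as it did by DESeq2 at 0.0299.

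With a tumor, training left the 6 genes other than C7 with log2 fold changes of -0.56 (C4b) to 0.12 (Cfb) in TE compared with T mice. Without the third T mouse C4b was -0.15, Cfp 0.06, Serping1 0.14, C3 0.29, Cfb 0.30 and C1ra 0.41, and the median of the 7 went from -0.09 to 0.29. For several genes the spread of the T mice depended on the third. C4b had an SD of 3.81 CPM in TE and 15.97 CPM in T mice, or 9.37 CPM without that mouse, and Serping1 of 13.5 and 36.3 CPM, or 7.85 CPM without it. Cfb had an SD of 5.61 CPM in TE mice, or 2.42 CPM without the fourth TE mouse, and of 3.10 CPM in T mice. Differences in spread were not tested. The interaction of tumor and training was negative for all 7, from -1.25 for C4b to -0.20 for Cfp, and 0 were called (edgeR, 3 at an unadjusted p under 0.05, and 0 by DESeq2), against 0% of all genes (edgeR, 1358 at an unadjusted p under 0.05; DESeq2, 6 higher and 14 lower). Without the third T mouse it was -0.84 for C4b, -0.76 for C7, -0.38 for Serping1, -0.36 for C3, -0.23 for Cfb, -0.04 for C1ra and 0.04 for Cfp. The T, E and interaction values share the C mice and are not independent. Without that mouse the training effect averaged over tumor states was also past the threshold for C1ra at 0.43 (edgeR adjusted p = 0.0215) and Serping1 at 0.33 (edgeR adjusted p = 0.0345).

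Across the 16 mice the complement genes other than C7 had high correlations, in part through the third T mouse. Pearson's r of log2 CPM was 0.93 for C3 and C1ra, 0.90 for C3 and Serping1, 0.90 for C1ra and Serping1, 0.87 for C4b and Cfb and 0.86 for C3 and C4b. Over the 15 pairs without C7 it ranged from 0.57 to 0.93. C7 had an r of 0.07 (Cfp) to 0.51 (C1ra) with the other 6. Without the third T mouse the ranges were 0.33 to 0.88 for the 15 pairs and 0.11 to 0.67 for C7, with C7 and C1ra at 0.67 and Cfp and Serping1 at 0.33. After subtraction of the group means the ranges were 0.33 to 0.92 and 0.13 to 0.44, with C3 and C1ra at 0.92. The points share library, depth and group, so these are descriptions over 16 mice and carry no p.

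**Figure D5:**
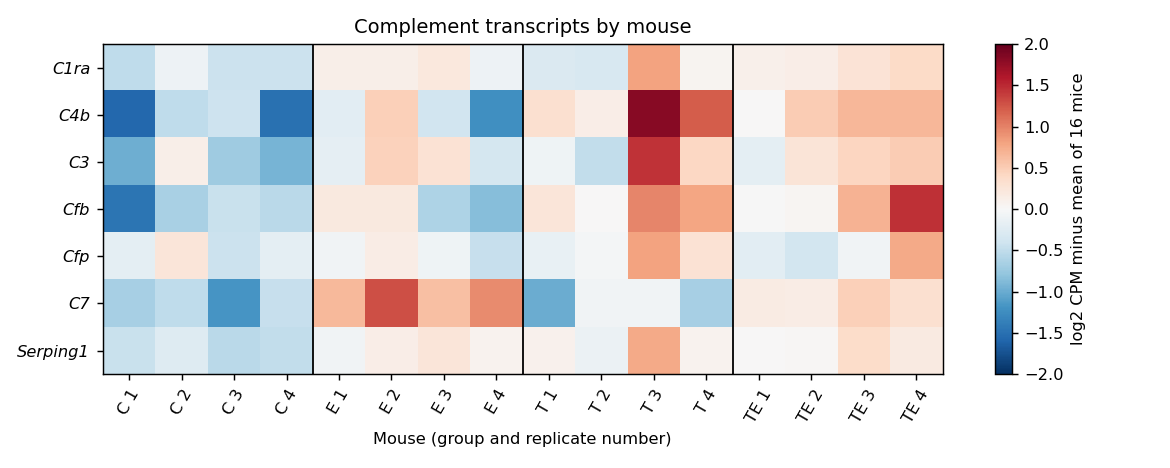
log2 CPM of 7 complement genes minus each gene's mean over 16 mice, by mouse, with black lines between groups; the colour scale runs from -2 to 2. C1ra, C4b, C3, Cfb and Serping1 are low in most C mice and high in the third T mouse, and C7 is high in the E mice.

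The genes most like each member across 16 mice were also listed. C7 was most like Chad (r = 0.89), Dhx38 (0.84), a splicing helicase, and Fst (0.83), the activin and myostatin antagonist follistatin. C3 was most like C1ra, Tent5a (0.92) and the macrophage scavenger receptor Cd163 (0.90). C4b was most like the acute phase inhibitor Serpina3n (0.92), Tmem176a (0.90) and Tgm2 (0.89), a transglutaminase. C1ra was most like Cmip (0.93), C3 (0.93) and the heparan sulfatase Sulf1 (0.92). Cfb was most like Litaf (0.94) and the cytokine receptor chains Csf2rb2 (0.93) and Csf2rb (0.92). Cfp was most like Atp1b3 (0.88) and the NADPH oxidase subunits Cybb (0.88) and Cyba (0.88). Serping1 was most like Cpne8 (0.95), the ectonucleotidase Entpd1 (0.93) and Btbd7 (0.92). Of these 21 pairings 3 were found again when the group means had been subtracted first, and 15 on log2(FPKM + 1).

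The other complement genes gave no call in edgeR in the 4 comparisons between groups. In T compared with C mice 22 of the 32 tested stood higher and 10 lower (median 0.38 on the log2 scale), and in E compared with C mice 23 stood higher and 9 lower (median 0.16). In TE compared with E mice 16 were higher and 16 lower, and in TE compared with T mice 11 were higher and 21 lower. In these comparisons, in the order given, 12, 7, 4 and 3 had an unadjusted edgeR p under 0.05, and DESeq2 called 4, 4, 1 and 0. The tumor effect over both training states called Vtn alone, lower by -0.30 (SE 0.0629, edgeR adjusted p = 0.0213). Cfd had a log2 fold change of 0.99 in T and 1.34 in E compared with C mice, with SE of 0.640 and 0.643.

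Cytokine and acute phase genes gave a second reference. Of 17 tested IL-6 family and acute phase genes, 14 were higher and 3 lower in T compared with C mice, with a median over all 17 of 0.56. In edgeR 5 of them were called, against 0.678% of all genes. The called genes were Serpina3n at 2.28, Lbp at 1.47, Lrg1 at 1.26, the oncostatin M receptor Osmr at 1.05 and the transcription factor Stat3 at 0.56 on the log2 scale. In TE compared with E mice 12 were higher and 5 lower. Lrg1 at 1.03 and Osmr at 0.94 passed there, against 0.231% of all genes called. C4b was 1.94 and 0.69 in the same comparisons.

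The 32 interferon gamma induced genes gave another order. In T compared with C mice 14 stood higher and 18 lower, the median being -0.03 on the log2 scale and 0 called (edgeR, 4 at an unadjusted p under 0.05, and 0 by DESeq2). In TE compared with E mice 30 were higher and 2 lower, and edgeR called 5, against 0.231% of all genes. The 5 were the guanylate binding proteins Gbp4 at 1.05 and Gbp7 at 0.46 and the immunity related GTPases Iigp1 at 0.88, Irgm2 at 0.85 and Igtp at 0.75. In TE compared with T mice 31 of 32 were higher, with a median of 0.38 and 0 called (edgeR, 17 at an unadjusted p under 0.05, and 3 called by DESeq2), where the 7 complement genes had a median of -0.09, or 0.29 without the third T mouse. The interferon list also holds MHC class II genes, which antigen-presenting cells express. Of these, H2-Aa had 12.4 ± 3.34 FPKM in T and 15.4 ± 10.3 FPKM in TE mice (SD, n = 4), with 1 TE mouse at 30.5 FPKM. The summed FPKM of the 32 genes was 383 to 481 in the T mice and 491 to 701 in the TE mice. All 12 lymph node and lymphocyte genes were higher in TE compared with T mice, with a median of 3.88 and 0 called (edgeR, 9 at an unadjusted p under 0.05, and 1 called by DESeq2). Their summed FPKM was 9.18 to 45.9 in the C mice, 14.5 to 43.1 in the E mice, 5.10 to 11.54 in the T mice and 7.13 to 137.6 in the TE mice. The TE mean of 40.7 ± 64.6 FPKM (SD, n = 4) rested on 1 mouse, and the other TE mice lay within the range of the T mice. The part of these genes in the interferon values was not tested.

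The counts of some of these genes carry limits of mapping. C4b has the near-identical copy C4a, which was not among the genes measured. C1ra has the copy C1rb, which averaged 1.35 FPKM. The treatment of reads shared between copies is not given in the sources used here. Cfb overlaps Nelfe on the other strand and the readthrough gene Gm20547 on its own, and the strand setting of the counting is likewise not given.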

How the data were processed

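RNA from gastrocnemius of 16 mice (4 groups of 4) was sequenced, and the libraries were treated as 1 batch. Per the submitters' processing notes, reads were trimmed with fastp 0.20.1, aligned to GRCm39 with HISAT2 2.1.0 and counted with HTSeq 0.11.2. The authors deposited raw counts per gene and FPKM values; strand setting and annotation release are not given in the sources used here. Library totals were 35628211 to 37635741. Genes passing filterByExpr (14749 of 35415) were fitted with edgeR 4.0.16 in R 4.3.3 (TMM factors, quasi-likelihood test, 1 coefficient per group, all 16 libraries, two-sided). p-values were Benjamini-Hochberg adjusted over all genes tested and called below 0.05. DESeq2 1.42.0, limma 3.58.1 on log2(FPKM + 1) and log2(FPKM + 0.1), and leaving out each mouse were among the alternatives. The fit was tested on simulated data. Within-group chi-square per degree of freedom was 12.8 to 61.9, and no library was counted as a copy. Gene positions come from GENCODE on GRCm39.

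The 8 genes and the gene lists were chosen with earlier results of these data known. Genes named were the 8, called genes of the lists, the 5 other complement genes of highest mean FPKM, and the 3 genes of highest Pearson r with each of the 8, together with the subunits said to have been looked up later. Labels name each sample as a separate mouse; p-values measure the spread between these mice.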

Additional observations from a re-analysis of the deposited data

Results flagged for a closer look

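C1ra in the second C mouse was flagged because it stood apart from the rest of its group by Dixon's criterion. It had 17.1 CPM, where the other 3 C mice had 12.9 to 13.5 CPM, and the gap was 0.842 of the range of the group. It was 1 of 28 groups of 4 mice examined (7 genes in 4 groups), and chance flags about 1 in 20. The same mouse had the highest C3 of its group at 83.6 CPM.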

How the results depend on the processing

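In T compared with C mice, 2 complement genes were called. This became 1 with a fold change above 2 required, and 0 with a robust fit, with limma on log2(FPKM + 1) or log2(FPKM + 0.1), and with the 2 groups fitted alone, and 3 by DESeq2 and with no filter on low counts. It ranged from 0 to 3 with 1 of the 16 mice left out. In E compared with C mice 1 was called, 2 by DESeq2 and 2 with the 2 groups fitted alone, and 0 to 2 with 1 mouse left out (0 without C mouse 1, C mouse 3 or E mouse 4, and 2 without T mouse 3). The tumor effect over both training states had 2 calls, 0 with the robust fit, 0 and 1 with limma at pseudocounts of 1 and 0.1, 3 by DESeq2, and 1 to 3 with 1 mouse left out. The training effect had 1 call, and 1 to 3 with 1 mouse left out. The cause was not tested.

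Same-numbered mice of different groups did not deviate together (r of deviations from -0.241 to 0.214), so the replicate numbers do not pair them. With a replicate block the tumor effect had 1 complement gene called, Cfb being lost (edgeR adjusted p = 0.0609), and the block changed no other count of complement genes called.

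Directions turned for these differences, none of which was called. Serping1 in TE compared with E mice was -0.0037 and -0.0038 with limma at the pseudocounts of 1 and 0.1, and -0.028 to 0.10 with 1 mouse left out. Cfp ranged from -0.10 to 0.34 there. In TE compared with T mice the ranges were -0.45 to 0.29 for C3, -0.031 to 0.41 for C1ra, -0.27 to 0.30 for Cfb, -0.48 to 0.056 for Cfp and -0.19 to 0.14 for Serping1. In E compared with C mice Cfp ranged from -0.072 to 0.17. The training effect over tumor states ranged from -0.097 to 0.27 for C4b and from -0.23 to 0.038 for Cfp, and the interaction from -0.51 to 0.036 for Cfp.

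C7 kept its training call, averaged over tumor states, in 16 of 16 fits with 1 mouse left out (edgeR adjusted p from 0.00326 to 0.0311) and its E against C call in 13 of 16. Of single-gene values, 731 of those with 1 mouse left out kept direction and side of the threshold, 26 lost the call, 6 gained one and 21 turned. Under the other settings these were 350, 14, 5 and 2. Over all genes, DESeq2 called 199 higher and 52 lower in E compared with C mice where edgeR called 13 and 0, and the 2 groups alone gave 153 and 30. In T compared with C mice DESeq2 called 283 and 141 where edgeR called 76 and 24, and limma 14 and 13 at a pseudocount of 1. C6 is limited by depth, with 25 counts in all.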
